A study of Mus musculus with 4 samples.

Results

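The cells described here are cell barcodes of the mouse liver that carried transcripts of Kupffer cells (KCs), the resident macrophages of the liver, together with transcripts of endothelial cells (ECs). They were chosen by their measured RNA, and 785 of 30362 kept cells qualified. A kept cell had 500 to 6000 detected genes and at most 10% of its UMIs, the molecular tags that each mark 1 captured transcript, from mitochondrial genes. To be a member, a kept cell also had to have at least 0.5% of its UMIs from the sum of 7 KC genes (Clec4f, Vsig4, Cd5l, Timd4, C1qa, Folr2 and Marco) and at least 0.3% from the sum of 9 EC genes (Pecam1, Kdr, Stab2, Clec4g, Ptprb, Cdh5, Egfl7, Oit3 and Dnase1l3). Values of these 16 rule genes, and shares of cells past their sums, are given below as a description. The question asked of the members was which of their other genes depart from a mixture of KCs and ECs.

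The data came from 4 libraries of untreated mice, 1 mouse per genotype, made with the 10x Chromium 3' kit v3.1 after hepatocytes and non-parenchymal cells had been isolated separately and mixed. WT mice were unmodified. In YAPKO mice Cre under the albumin promoter recombined floxed alleles of Yap1, in TAZKO mice those of Wwtr1, which encodes TAZ, and in DKO mice those of both. That promoter is active in hepatocytes and biliary cells, so the KCs and ECs of all 4 mice keep intact alleles, and the labels give no age. The libraries held 66259687 UMIs in WT, 85989454 in YAPKO, 49022089 in TAZKO and 77411746 in DKO, and the members numbered 174, 136, 271 and 204 of 7155, 6275, 8638 and 8294 kept cells in that order, which is used throughout. With 1 library per genotype no test was made, differences between libraries have no replicate check, and cells of 1 library are not replicates. Intervals are at 95%, are exact for shares of cells, and cover counting error only. Over all pairs of libraries 214 cell barcodes were shared, 96 of them between kept cells and 0 between members.

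KCs sit inside the sinusoids, the capillaries of the liver, where they touch the sinusoidal ECs and reach through them to stellate cells and hepatocytes. ECs and stellate cells supply signals such as BMP, Notch and colony-stimulating factor ligands that maintain the identity of KCs, and both KCs and sinusoidal ECs clear particles and proteins from blood through scavenger receptors. Tissue digestion can leave cells that touch each other attached, and a droplet can also capture more than 1 cell, so that RNA of different types can share a barcode without being made in 1 cell.

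Members made up 15.7% to 20.6% of the cells past the KC threshold, a share that moved with the limits and thresholds. They were 174 of 845 such cells in WT (20.6%, interval 17.9 to 23.5), 136 of 866 in YAPKO (15.7%, 13.3 to 18.3), 271 of 1393 in TAZKO (19.5%, 17.4 to 21.6) and 204 of 1088 in DKO (18.8%, 16.5 to 21.2). Each of these intervals overlapped each of the others. With no upper limit on detected genes the shares were 23.0%, 26.5%, 19.7% and 22.7%, which takes YAPKO from the lowest to the highest. They were 10.8%, 9.18%, 10.2% and 10.7% with the rule thresholds doubled and 5.19%, 2.86%, 12.1% and 4.17% with the limits read as UMIs, a reading that left 12, 3, 100 and 9 members. Of the cells past the EC threshold the members were 6.21%, 6.65%, 10.4% and 9.72%. Their distance from the thresholds was small at the edge. The member with the lowest EC sum stood at 0.307%, 0.309%, 0.3003% and 0.314% of its UMIs, and the cell just short of it at 0.297%, 0.299%, 0.2997% and 0.299%. For the KC sum the lowest members had 0.560%, 0.528%, 0.504% and 0.518%, and the highest cells below had 0.496%, 0.482%, 0.478% and 0.493%. An EC sum of 0.25% to 0.3% was found in 7, 1, 27 and 14 cells past the KC threshold.

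Cells with a low sum for 1 of both types served as references. Reference KCs had a KC sum of at least 0.5% and an EC sum below 0.1%, which gave 494, 593, 584 and 711 cells. Reference ECs had an EC sum of at least 0.3% and a KC sum below 0.1%, which gave 2597, 1830, 2290 and 1811 cells. Between the references and the members lay KCs with an EC sum of 0.1% to 0.3%, which numbered 177, 137, 538 and 173, and the plot of both sums shows this range to be the most filled in TAZKO.

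**Figure D1:**
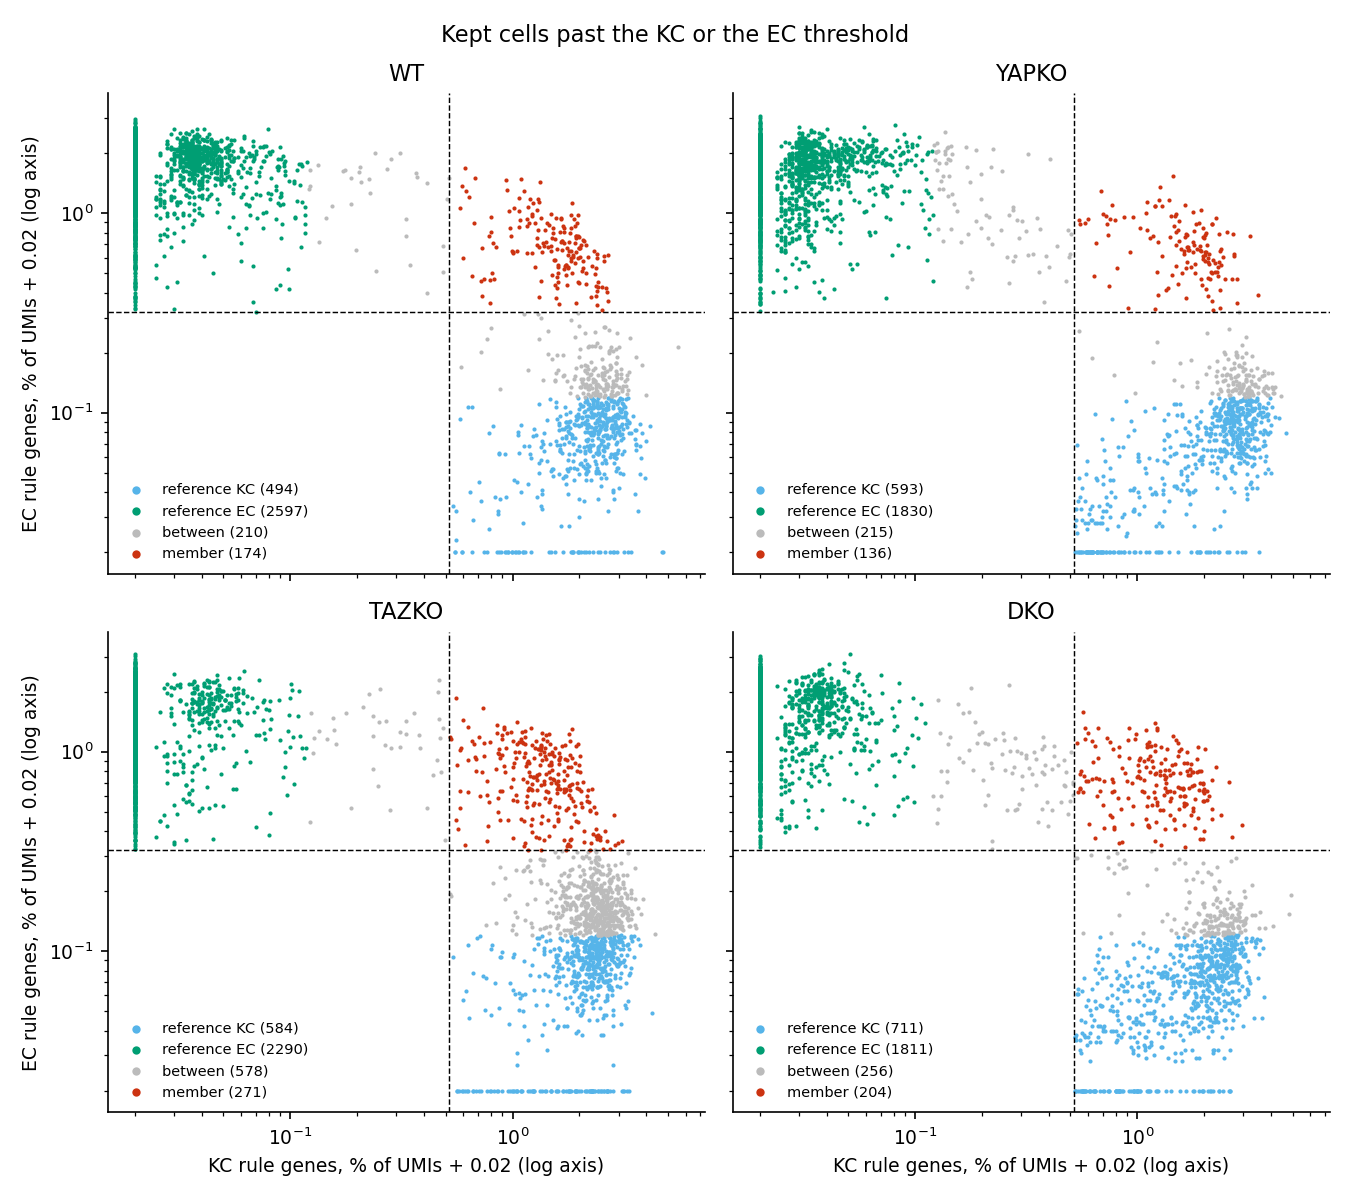
Share of UMIs from the 7 KC rule genes (horizontal, percent plus 0.02, log axis) and from the 9 EC rule genes (vertical, same scale) in each kept cell past the KC or the EC threshold, 1 panel per library, with the thresholds dashed and the counts of reference KCs, reference ECs, members and the cells between them in the key. The members, 174, 136, 271 and 204 cells, fill the corner past both thresholds, and the cells between them and the reference KCs are most numerous in TAZKO.

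Both sets of marker genes were detected in most members of every library, as cells chosen by the sums of such genes would have to carry them. Clec4f, a lectin found on KCs, was detected in 100%, 98.5%, 99.6% and 97.1% of the members, and Vsig4, a complement receptor, in 94.3%, 94.1%, 98.9% and 95.1%. Stab2, a scavenger receptor of sinusoidal ECs, was detected in 98.3%, 99.3%, 83.4% and 98.0%, and Kdr, a receptor for VEGF, in 100%, 99.3%, 89.7% and 99.0%. Reference KCs were not free of them, with Stab2 in 46.8%, 49.1%, 27.4% and 29.0% and Kdr in 3.44%, 5.90%, 3.25% and 2.67%. These 4 genes belong to the rule and are given as a description. Bmp2, a ligand outside the rule, was detected in 98.3%, 97.8%, 86.3% and 98.0% of the members, against 5.26%, 6.41%, 4.28% and 5.06% of reference KCs and 95.2%, 97.5%, 93.6% and 97.8% of reference ECs. The median depths behind these shares were 16089, 21408, 7899 and 16767 UMIs in members, 11881.5, 16501, 5361 and 9467 in reference KCs and 5564, 8308.5, 4151 and 6314 in reference ECs.

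EC transcripts were far less frequent in lymphocytes and hepatocytes than in KCs. For this comparison cells of other types were taken with a KC sum below 0.1% and a summed marker list of at least 0.5% for B cells and T cells, 2% for neutrophils, 1% for stellate cells and 10% for hepatocytes. The EC sum reached 0.3% in 0.5%, 0.467%, 0.626% and 0.341% of B cells, and in hepatocytes in 0.290%, 0 (which allows up to 0.333%), 0.0724% and 0.0454%. In T cells the share was 1.53%, 0.797%, 0 (which allows up to 0.877%) and 0.756%. Neutrophils stood between, with 6.15%, 8.48%, 9.68% and 5.84%, and stellate cells were high, with 84.6%, 85.9%, 76.6% and 71.8%. No limit on the EC sum was set, so ECs that carried enough stellate RNA counted as stellate cells. Of 379 such cells 303 passed the EC threshold, and this share does not tell from which type a barcode came. The shares of KCs and stellate cells lay above those of B cells, T cells and hepatocytes in every library.

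Depth differed between these types. The median was 12196, 17183, 5482 and 10507 UMIs in cells past the KC threshold, 2923, 2864.5, 2795 and 2126 in B cells, 4613.5, 4462.5, 3958 and 3078 in T cells and 2175, 7261.5, 1799 and 7073 in hepatocytes. Neutrophils had 2323, 2275, 1870 and 1865 and stellate cells 9427.5, 15031.5, 7488.5 and 11930. After each cell was thinned to 2000 UMIs and shallower cells were left out, which removed 38, 20, 202 and 36 KCs, the share of KCs past the EC threshold was 22.2%, 15.5%, 21.9% and 19.7%. Pooled over libraries it went from 18.7% to 19.97%, that of B cells from 0.5% to 0.563%, of T cells from 0.736% to 0.751%, of neutrophils from 7.27% to 11.3%, of stellate cells from 79.9% to 82.2% and of hepatocytes from 0.113% to 0.228%. In TAZKO only 12 neutrophils were left after thinning, 3 of them past the threshold (25%), above the share of KCs there. Without the limit on the KC sum, the KC threshold was passed by 3 of 1608 B cells, 1 of 1769 T cells, 10 of 880 neutrophils, 3 of 8174 hepatocytes and 52 of 442 stellate cells, and 40 of those stellate cells passed the EC threshold as well.

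Members held more RNA than either reference and somewhat less than the sum of both, an order that depended on how the limits of 500 to 6000 were read. The mean was 15960.5, 20595, 8397 and 16549.7 UMIs per member, against 11951, 15961.6, 5862 and 9749 per reference KC and 5891, 9364, 4715 and 7606 per reference EC. A member thus carried 0.895, 0.813, 0.794 and 0.954 times the sum of 1 mean reference KC and 1 mean reference EC. Their median number of detected genes was 4644, 5328.5, 3412 and 4830.5, closest to the upper limit of 6000 in YAPKO. The upper limit on genes bears on this ratio, because 29, 137, 4 and 57 barcodes with over 6000 genes met both sums, and with them included the mean ratio over libraries was 1.01 in place of 0.864. With the limits read as UMIs, which caps every cell at 6000 UMIs, it was 0.435 (0.553, 0.382, 0.497 and 0.307 by library), so that in YAPKO, TAZKO and DKO a mean member then held less than the larger of both mean references. The median mitochondrial share was 1.05%, 1.01%, 1.13% and 1.06% in members, between that of reference KCs (0.840%, 0.832%, 0.886% and 0.926%) and that of reference ECs (1.15%, 1.17%, 1.42% and 1.21%).

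The share of a member's RNA that matches ECs was estimated from genes outside the rule. For each library the summed UMIs of the members were fitted by maximum likelihood as a mixture of the summed profiles of both references, over 1845, 1676, 1501 and 1572 genes that differ at least 8-fold between them, without rule genes, mitochondrial genes and marker genes of other types. The EC share was 35.7% (likelihood interval 35.5 to 35.8), 35.9% (35.7 to 36.0), 43.4% (43.2 to 43.6) and 42.7% (42.6 to 42.8). A pair of 1 mean reference KC and 1 mean reference EC would have an EC share of 33.0%, 37.0%, 44.6% and 43.8% from their UMIs, and the highest and next highest shares were those of TAZKO and DKO in both measures. The order depended on the limits, with fitted shares of 38.0%, 45.9%, 44.2% and 47.6% without the upper limit on detected genes and of 50.8%, 63.4%, 35.8% and 58.3% with the limits read as UMIs. The kind of gene moved the estimate by more than its interval. The median over genes higher in ECs gave 37.8%, 37.7%, 46.5% and 45.6%, and the median over genes higher in KCs 30.8%, 27.1%, 37.3% and 34.2%. Split at the fitted share, a member held 0.967, 0.789, 0.773 and 0.929 times the UMIs of a mean reference EC and 0.859, 0.828, 0.810 and 0.973 times those of a mean reference KC, as the bars of UMIs per cell show.

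**Figure D2:**
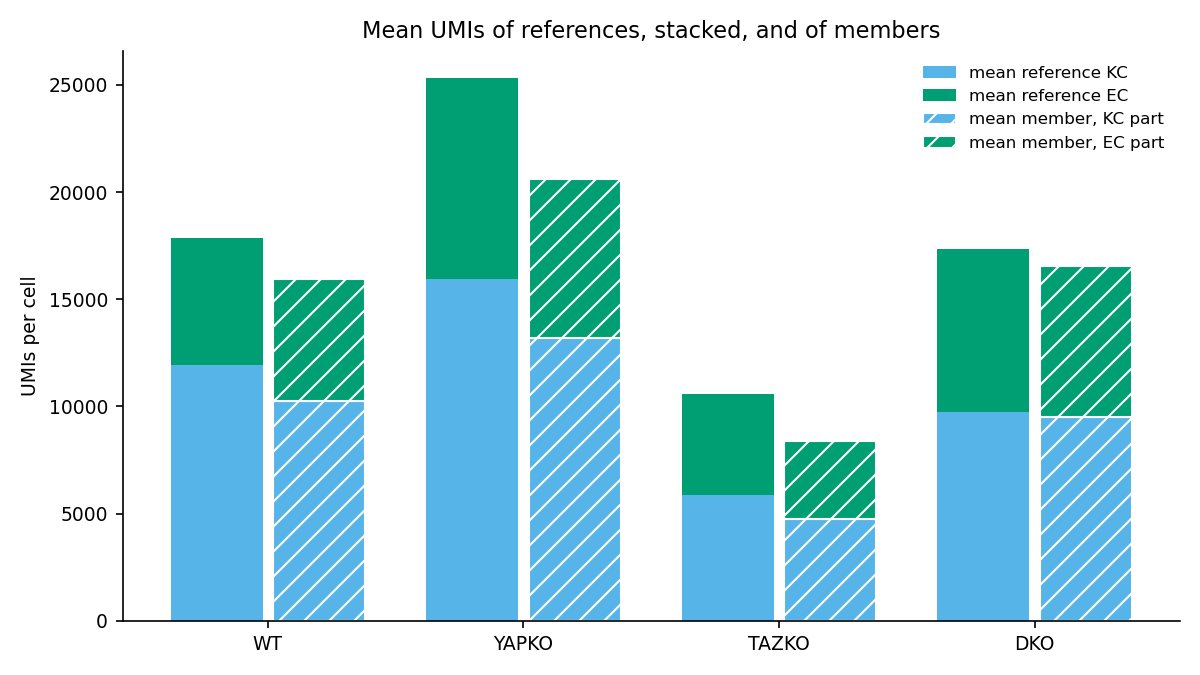
Mean UMIs per cell in each library, with the mean reference KC and the mean reference EC stacked in the plain bar and the KC part and the EC part of a mean member, split at the fitted share, stacked in the hatched bar beside it. The hatched bars reach 0.895, 0.813, 0.794 and 0.954 times the plain bars.

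Single members varied around these shares. Fitted cell by cell, the middle 50% of members had EC shares of 27.4% to 48.8% in WT, 27.9% to 46.5% in YAPKO, 31.0% to 53.1% in TAZKO and 34.5% to 51.0% in DKO. An EC share between 20% and 80% was found in 158, 128, 234 and 198 members, which is 90.8%, 94.1%, 86.3% and 97.1% of them. Shares over 80% occurred in 1, 1, 3 and 2 members. Members below 10% numbered 0, 0, 29 and 2, and were thus nearly all in TAZKO. The 29 TAZKO members were shallow, with a median of 1987 UMIs, and 181 of their 243 UMIs of EC rule genes (74.5%) were of the single gene Cdh5. Cdh5, which encodes the junction protein VE-cadherin, was counted in reference KCs too, at 348, 337, 472 and 273 CPM (UMIs per 1000000 UMIs of the same cells). The histograms of the EC share show this group at the left in TAZKO.

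**Figure D3:**
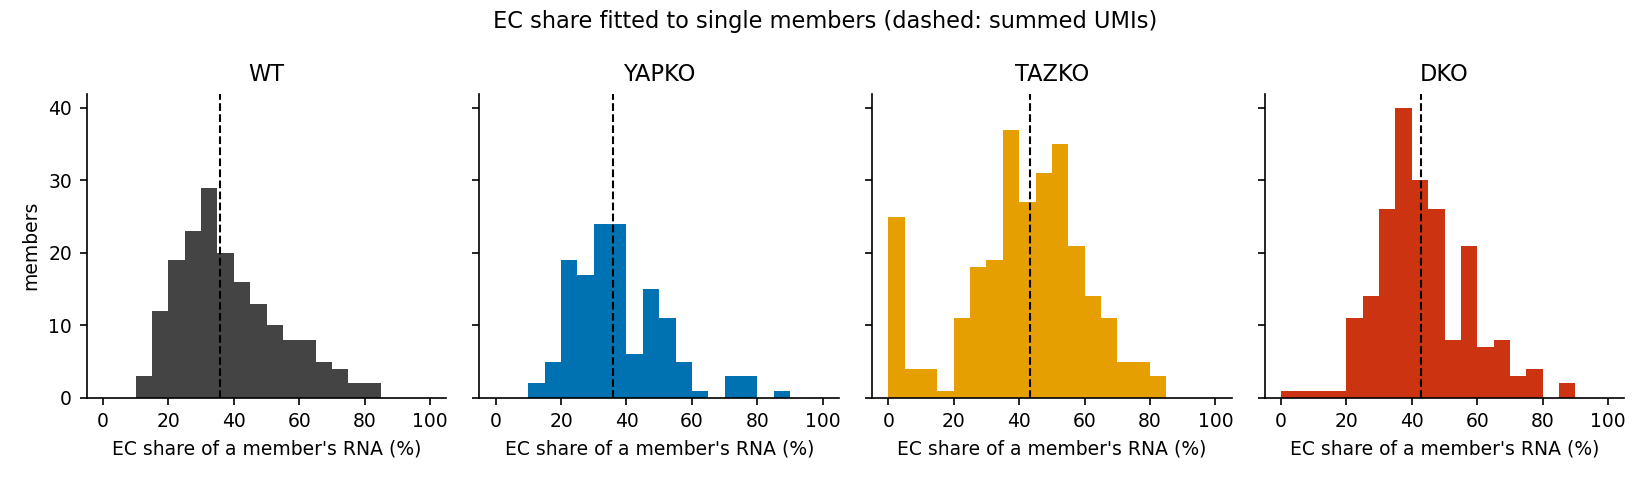
Number of members by the EC share of their RNA fitted cell by cell, in bins of 5%, 1 panel per library, with a dashed line at the share fitted to the summed UMIs. The shares spread around 35.7%, 35.9%, 43.4% and 42.7%, and TAZKO has 29 members below 10%.

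At the fitted share, the mixture described nearly all genes. For each gene the UMIs summed over the members were compared with those expected from the mixture of both references of the same library, as the log2 of observed plus 1 over expected plus 1. A gene was tested if it had at least 20 observed or expected UMIs in every library, which left 9128 genes without the rule genes. Within 1.5-fold of the mixture lay 95.3%, 95.3%, 93.9% and 96.7% of them, against 71.4%, 70.9%, 70.3% and 69.7% for KCs alone and 62.6%, 62.8%, 65.8% and 68.9% for ECs alone. The median log2 ratio over all tested genes was 0.05, 0.04, 0.08 and 0.05. Small departures to the same side in all 4 libraries were common, with 2450 genes above (26.8%) and 1139 below (12.5%). These medians and shares of all tested genes are the background for the gene lists below. With the limits read as UMIs only 35 genes were tested, and their median was −0.32 in the mean of libraries. Values given below for that reading stand against this lower background.

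No gene was at least 2-fold above the mixture in all 4 libraries (0 of 9128, 0%), and 14 were at least 2-fold below (0.153% of those tested), while 28 genes were above with no upper limit on detected genes and 5 with means of per-cell shares. By library, 6 genes were above in WT (0.0657%), 4 in YAPKO (0.0438%), 41 in TAZKO (0.449%) and 6 in DKO (0.0657%), and 103 were below in WT (1.13%), 164 in YAPKO (1.80%), 71 in TAZKO (0.778%) and 110 in DKO (1.21%). The requirement of all 4 libraries was set most by TAZKO and WT. The count below was 52 without TAZKO and 25 without WT. Each held all 14 by construction, since a gene called in all 4 libraries stays called when 1 of them is left out. Without YAPKO the count above was 1, the laminin gene Lama1. The counts are shown in the scatter of observed against expected UMIs, where points crowd along the line of equal values.

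**Figure D4:**
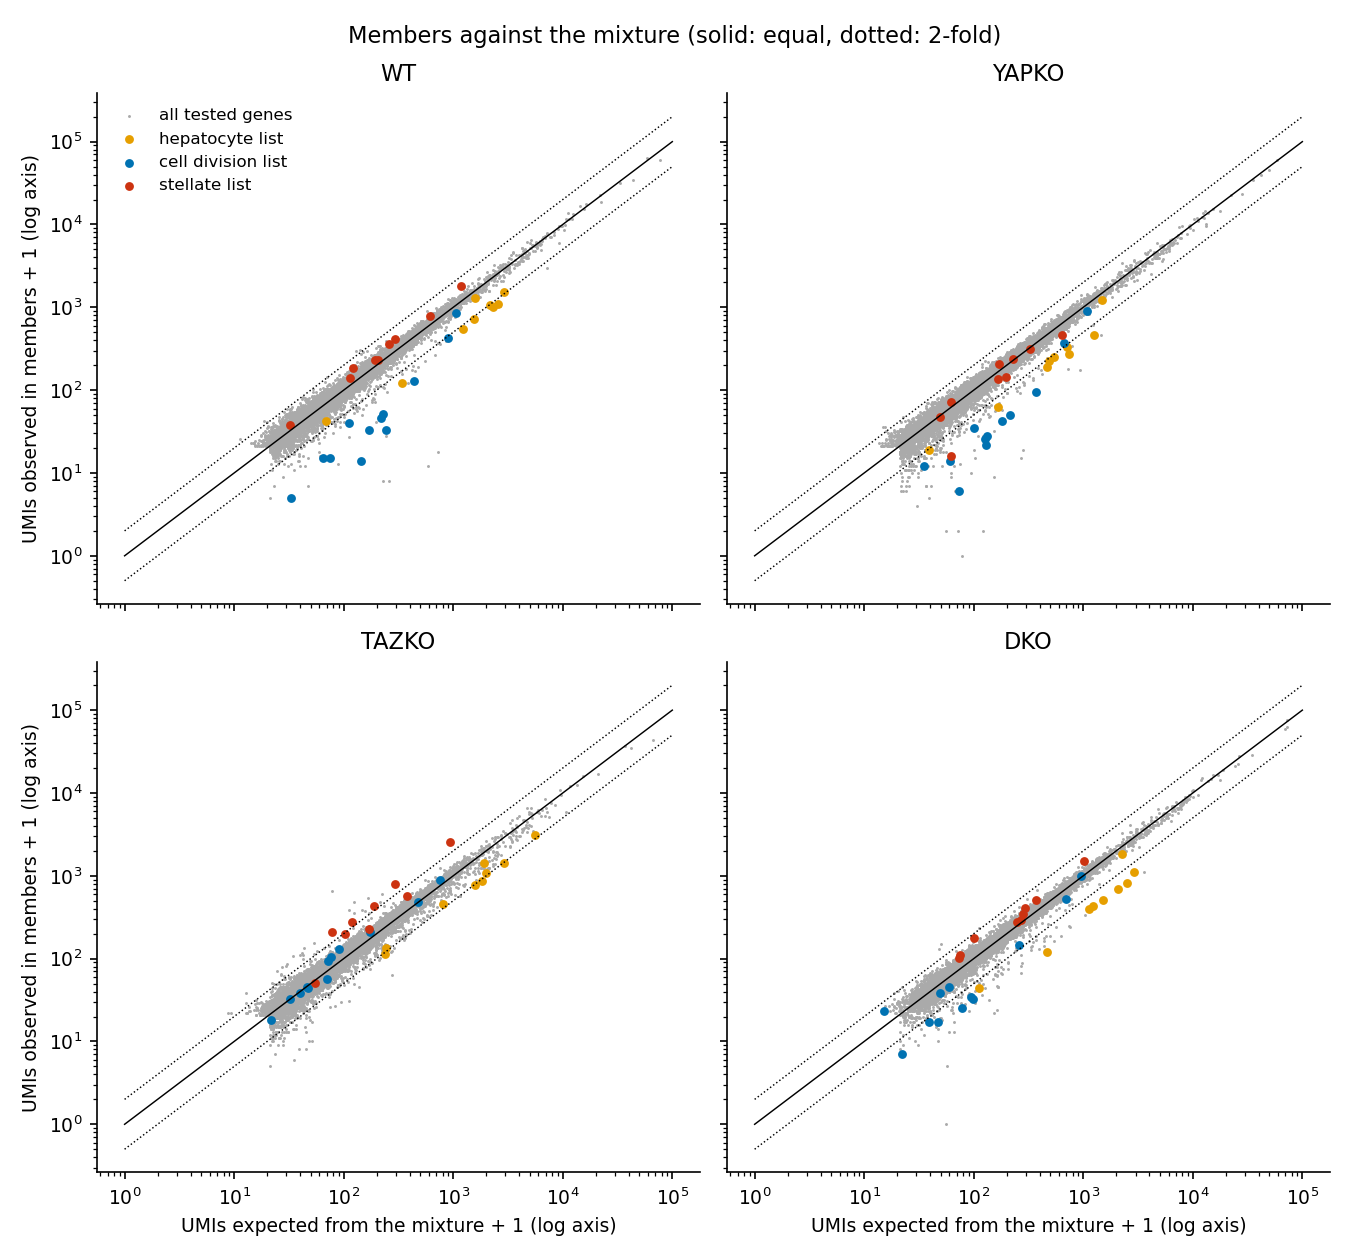
Observed UMIs plus 1 in the summed members (vertical, log axis) against UMIs plus 1 expected from the mixture (horizontal, log axis) for each tested gene, 1 panel per library, with equal values on the solid line, 2-fold on the dotted lines and the genes of the hepatocyte, cell division and stellate lists coloured. Hepatocyte genes lie below the solid line in all 4 panels, and stellate genes above it most in TAZKO. The median of the cell division genes is below it in WT, YAPKO and DKO. In the mean over libraries, cell division genes reversed direction with the limits read as UMIs, and stellate genes with the rule thresholds doubled.

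Of the genes below the mixture, 10 of 14 were genes of hepatocytes, and for most of these the call depended on the setting. The 14 genes were Apoa2, Apom, Bhmt, Cox6a2, Fabp1, Hamp, Ms4a4b, Serpina1a, Spp1, Trbc2, Ttr, Upb1, Urah and Wfdc21, of which 10 had their highest level in hepatocytes among the cell types compared, as had 891 of the 9128 tested genes (9.76%). With wider references 6 genes were called (Cox6a2, Ms4a4b, Serpina1a, Spp1, Trbc2 and Urah), and with the EC share from KC genes also 6 (Apom, Cox6a2, Cx3cr1, Serpina1a, Spp1 and Trbc2), so that Hamp, Apoa2, Fabp1 and Bhmt were not called under either. Hamp (ENSMUSG00000050440, GRCm38 chromosome 7, 30942368 to 30944032) encodes hepcidin, the hormone that lowers iron export. Members had 63.0, 22.5, 58.9 and 55.7 CPM of Hamp against 152, 46.9, 126 and 184 in the mixture, a log2 ratio of −1.27, −1.05, −1.09 and −1.72, while hepatocytes had 4501 CPM on average. Members were below the mixture in every library, most in DKO. Apoa2, an apolipoprotein of high-density lipoprotein, had 389.6, 117, 631 and 245 CPM against 916, 254, 1283 and 738 (log2 −1.23, −1.12, −1.02 and −1.59). Fabp1, which binds fatty acids in the cytosol, had 381, 96.8, 381 and 206 CPM against 785, 263, 799.7 and 616 (log2 −1.04, −1.44, −1.07 and −1.58). Bhmt, an enzyme of methionine metabolism, had log2 ratios of −1.23, −1.49, −1.03 and −2.02, Urah, which acts in the breakdown of urate, −1.07, −1.46, −1.24 and −1.83, and Upb1, of pyrimidine breakdown, −1.13, −1.77, −1.08 and −1.97. Gnmt, Fgb and Apom, which encode a methyltransferase, a chain of fibrinogen and an apolipoprotein, were also below in every library, with Apom at −1.09, −1.20, −1.03 and −1.16.

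The whole hepatocyte marker list moved with these genes. Of its 10 genes 9 were tested, and all 9 were below the mixture in all 4 libraries, with a median log2 ratio of −1.11, −1.13, −0.89 and −1.53. Its summed level was 2666, 1085, 4126 and 1764 CPM in members against 5297, 2104, 7539 and 4225 in the mixture. Alb, which encodes albumin, was its most abundant gene in WT and TAZKO, and Trf, which encodes transferrin, in YAPKO and DKO, and no gene of the list was at 0. Counted per cell, the list gave 42.5, 22.3, 34.6 and 29.2 UMIs per member, 50.9, 34.2, 38.1 and 37.4 per reference KC and 42.2, 19.1, 41.9 and 36.1 per reference EC. A member thus held fewer hepatocyte UMIs than 1 mean reference KC in every library, and far fewer than the sum of both references, which was 93.1, 53.3, 80.04 and 73.5. The part of the hepatocyte markers in the genes below the mixture was not tested.

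Among the types compared, the genes below the mixture that were not highest in hepatocytes had their highest levels in T cells or ECs. Trbc2, a constant segment of the T cell receptor, had 10, 6, 9 and 49 UMIs against 34.2, 39.4, 49.95 and 119.6 expected, and Ms4a4b, a membrane protein of T cells, 8, 10, 17 and 33 against 27.2, 32.3, 48.4 and 75.2. Of the 6 genes of the T cell list 3 were tested, with a median log2 ratio of −1.68, −1.11, −2.35 and −0.38. All 3 were below in all 4 libraries, as were 12.5% of all tested genes. The list summed to 15.5, 16.4, 24.6 and 64.9 CPM against 41.6, 47.1, 77.4 and 107. Its part in the result was not tested. Cox6a2, a subunit of cytochrome c oxidase, had 25, 5, 8 and 12 UMIs against 57.8, 66.7, 27.2 and 65.4. Spp1, the secreted protein osteopontin, had 70, 8, 45 and 0 UMIs against 191, 153, 138 and 54.7, and 97.8% of its UMIs in TAZKO came from 1 member. Among the types compared, both of these had their highest level in the reference ECs. Biliary cells, dendritic cells, monocytes and lipid-associated macrophages were not among those types. Spp1 is on the marker list of lipid-associated macrophages, and the paper used it as a marker of biliary cells. Neither gene can thus be called endothelial from these levels.

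Cell division genes had a median below the mixture in WT, YAPKO and DKO and on it in TAZKO, but with the rule thresholds doubled it was below in all 4 libraries (−2.55, −1.78, −1.59 and −1.32). The median log2 ratio of the 12 genes of the list was −2.19, −2.08, 0.01 and −1.01, and its mean over libraries turned to 0.05 when 500 to 6000 was read as a number of UMIs (0.77, 0.32, −0.83 and −0.06 by library). With that reading 124 members and 35 tested genes were left, and the median over those genes was −0.32 in the mean of libraries against 0.06 for all genes tested otherwise. Top2a, which untangles chromosomes, had 18.4, 17.5, 57.6 and 9.48 CPM against 82.2, 75.4, 39.8 and 29.0 in the mixture (log2 −2.14, −2.09, 0.53 and −1.58), a mean that turned to 0.98 with that reading and to 0.15 without dividing cells. Stmn1, a regulator of microtubules, had 46.5, 33.6, 91.0 and 42.9 CPM against 158, 133, 75.3 and 75.8, with a mean log2 ratio that turned to 0.58 with that reading. In both genes the members of TAZKO were above their mixture and those of the other libraries below it, while at the doubled thresholds both were at least 2-fold below in all 4 libraries. Cells with at least 0.5% of their UMIs from this list were 1.72%, 1.47%, 2.58% and 0.490% of members, 8.30%, 7.08%, 2.91% and 2.53% of reference KCs and 0.578%, 1.42%, 0.655% and 0.883% of reference ECs.

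The shortfall of division genes depended on which cells were let in. With such cells left out of members and references, the median of the list was −0.73, −0.24, 0.30 and 0.31, and with no upper limit on detected genes it was −0.68, −0.38, 0.00 and −0.33. The part of dividing cells and of the upper limit in the shortfall was not tested beyond these values.

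None of the genes most above the mixture in all 4 libraries reached 2-fold in each of them, though Steap4 and Postn passed it in TAZKO, and Postn in all 4 with means of per-cell shares. Steap4 (ENSMUSG00000012428, chromosome 5, 7960457 to 7982213) encodes a metalloreductase, and members had 78.1, 51.4, 214 and 63.1 CPM against 47.3, 30.7, 54.1 and 44.0 (log2 0.72, 0.74, 1.98 and 0.52). Postn, which encodes the matrix protein periostin, had 16.9, 11.1, 35.6 and 17.8 CPM against 10.3, 8.08, 12.7 and 10.0 (log2 0.70, 0.44, 1.46 and 0.81). Both were highest in TAZKO and had their highest level in stellate cells, with 796 and 199 CPM on average, and the mean of Steap4 reversed to −0.20 with both rule thresholds doubled. Levels of stellate cells, here and below, come from cells with both sums below 0.1%, which numbered only 18, 8, 18 and 22.

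Ksr2, Csf2rb and Rassf5 were not highest in stellate cells. Ksr2, a scaffold of the MAP kinase pathway that was highest in KCs, had 28.1, 22.5, 25.05 and 26.4 CPM against 18.6, 15.97, 16.2 and 16.9 (log2 0.58, 0.49, 0.61 and 0.63). Csf2rb, the shared receptor chain for GM-CSF, IL-3 and IL-5, had 125, 149, 106 and 114 CPM against 90.1, 108, 70.5 and 81.7 (log2 0.48, 0.45, 0.58 and 0.48). Rassf5, a regulator of integrin adhesion, had 50.8, 42.8, 98.9 and 52.1 CPM against 36.3, 30.0, 67.8 and 33.6 (log2 0.48, 0.51, 0.54 and 0.63). Both Csf2rb and Rassf5 had their highest level in neutrophils, with 216 and 130.4 CPM on average. These 3 genes departed by a like amount in every library and in counts that no single member dominated, with at most 4.98% of the UMIs of any of them in 1 member. Psme2b, Cds1, BC024978 and Ercc2 were also among the 10 genes highest above the mixture, and with the limits read as UMIs the mean log2 ratio turned from 0.58 to −0.25 in BC024978 and from 0.55 to −0.14 in Ercc2. BC024978 had its highest level in stellate cells, with 8.84 CPM against 7.49 in ECs.

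RNA of stellate cells was higher in the members than in the mixture in WT, TAZKO and DKO, but which libraries were above changed with the setting. Of the 12 genes of the stellate list 9 were tested, with a median log2 ratio of 0.36, −0.09, 1.19 and 0.47 and 3 genes above in all 4 libraries, and the mean reversed to −0.28 with the rule thresholds doubled (−0.14, −0.49, −0.52 and 0.02). The median of YAPKO turned to 1.44 with no upper limit on detected genes, 0.39 with means of per-cell shares, 0.25 without cells with RNA of further types and 0.11 with the EC share from KC genes, and that of DKO to −0.22 with the limits read as UMIs. Of all tested genes, 26.8% were above in all 4 libraries. The stellate list summed to 1533, 588, 2378 and 1123 CPM against 1098, 694, 1041 and 822, its most abundant gene was Dcn in every library, and of its genes only Col1a1 in WT was at 0. Dcn, which encodes the proteoglycan decorin, had 649, 166, 1117 and 441 CPM against 426, 228, 413 and 300.2 (log2 0.61, −0.46, 1.43 and 0.56, mean reversed to −0.39 at the doubled thresholds). At least 0.5% of UMIs from the list were found in 11.5%, 2.94%, 10.3% and 5.39% of members, 8.20%, 5.03%, 4.85% and 5.19% of reference ECs and 0.810%, 0.169%, 0.685% and 0.281% of reference KCs.

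Among the 41 genes above 2-fold in TAZKO were Steap4, Postn and Dcn and, chosen after their values were seen, the chemokine Cxcl12 and the BMP ligand Gdf2. Cxcl12 had 124, 44.3, 263 and 93.6 CPM against 76.7, 36.8, 98.0 and 63.9, and Gdf2 33.8, 11.4, 47.9 and 18.1 against 19.8, 9.75, 18.4 and 15.1, and the mean log2 ratio reversed at the doubled thresholds to −0.13 and −0.24. With no upper limit on detected genes, 28 of 9780 tested genes (0.286%) were at least 2-fold above in all 4 libraries, and all 28 had their highest level in stellate cells, as had 1755 of those tested (17.9%). Reln, a secreted glycoprotein of stellate cells, then stood at log2 1.30, 1.83, 1.09 and 1.16, Igfbp3 at 1.57, 1.87, 1.67 and 1.78, and Dcn at 1.29, 1.61, 1.32 and 1.01. Reln and Igfbp3 were chosen after their values were seen. The stellate levels used here rest on 18, 8, 18 and 22 cells. The part of the stellate markers in the genes above the mixture was not tested.

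KC identity genes stood slightly above the mixture, with a mean over libraries of 0.20 against 0.06 for all tested genes, but of 0.07 against 0.08 with the EC share taken from KC genes. The median log2 ratio of the 20 genes of that list, none of them a rule gene, was 0.18, 0.25, 0.16 and 0.22, with 15 of them above and 1 below in all 4 libraries. Of all tested genes, 26.8% were above and 12.5% below in all 4 libraries. Slc40a1, the iron exporter ferroportin, had 2341, 1777, 2482 and 1907 CPM against 1851, 1446, 2155 and 1433 (log2 0.34, 0.30, 0.20 and 0.41). Lyz2, a lysozyme shared by many myeloid cells, was the exception, with 2519.9, 3435, 1791 and 2463 CPM against 2821, 4695, 2026 and 2626 (log2 −0.16, −0.45, −0.18 and −0.09). A set of 5 genes said to mark a second KC population with endothelial traits gave a median of 0.06, 0.21, 0.13 and 0.12, of which 3 were above in all 4 libraries. Its mean went from 0.13 to 0.37 with the EC share from KC genes, against 0.08 over all tested genes. Mrc1, a scavenger receptor of KCs and ECs alike, had 1286, 1169.6, 1434 and 1096 CPM against 1135, 956, 1307 and 907. It departed by less than 2-fold, as did every gene of that set.

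EC genes had a median near that of all tested genes and split by zone of the liver lobule. The 24 sinusoidal genes outside the rule had a median log2 ratio of 0.05, 0.14, 0.01 and 0.08 against 0.05, 0.04, 0.08 and 0.05 over all tested genes, a mean that turned to −0.14 when the limits were read as UMIs (−0.32 over the genes then tested) and to −0.01 with the EC share taken from EC genes. With the share from KC genes that mean was 0.34, against 0.08 over all tested genes. Ehd3, a protein of membrane recycling, was the most abundant of them in WT, YAPKO and TAZKO and stood above, at 1534, 1318, 2162 and 1309 CPM against 1218, 1032, 1672 and 1038 (log2 0.33, 0.35, 0.37 and 0.33). Genes of pericentral ECs were below, with a median over 8 tested of 10 genes of −0.27, −0.21, −0.11 and −0.16 (5 below in all 4 libraries), which turned to a mean of 0.07 with the EC share taken from KC genes. Genes of periportal ECs were above, with a median over 12 genes of 0.17, 0.28, 0.26 and 0.22 (7 above and 1 below in all 4 libraries). Their mean went from 0.23 to 0.48 with the EC share taken from KC genes and to 0.15 with that from EC genes. Of all tested genes, 26.8% were above and 12.5% below in all 4 libraries. The pericentral list summed to 853, 1052, 1214 and 1057 CPM against 1039, 1070.05, 1198 and 1125, and so lay slightly above the mixture in TAZKO.

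Single genes of the zones did not all follow these medians. Plxnc1, the most abundant pericentral gene in every library, had 379.9, 439, 517 and 367 CPM against 390.05, 370.05, 443 and 333 (log2 −0.04, 0.25, 0.22 and 0.14) and was thus below only in WT. Ly6a, the most abundant periportal gene in WT and YAPKO, had 1088, 906, 561 and 384 CPM against 1113, 929, 568 and 464 (−0.03, −0.04, −0.02 and −0.27), with a mean that turned to 0.03 with the EC share from KC genes. Kit, a receptor tyrosine kinase of pericentral ECs, had 79.2, 111, 132 and 124 CPM against 127, 129, 143 and 153 (log2 −0.68, −0.22, −0.12 and −0.30), and Wnt2, a ligand that sets the pericentral zone of hepatocytes, 39.97, 53.2, 131 and 71.98 against 71.3, 73.3, 132 and 95.1 (−0.83, −0.46, −0.02 and −0.40). Ntn4, a netrin of periportal ECs, had 139, 129.6, 229.8 and 113 CPM against 87.8, 99.3, 179.6 and 95.4 (0.66, 0.38, 0.36 and 0.25), and Msr1, a scavenger receptor of both KCs and periportal ECs, 568, 501, 629 and 341 against 455, 398, 544 and 287, with a mean of −0.05 with the limits read as UMIs. Of these genes Kit and Wnt2 were farthest below the mixture in WT and nearest to it in TAZKO. Genes of large vessels, of which 4 of 9 were tested, had medians of 0.10, −0.08, −0.07 and −0.46, with a mean turned to 0.01 with the EC share from KC genes. Of these 4, Vcam1 was highest in KCs (497 CPM, against 106 in ECs) and Clu in hepatocytes (1458 against 193). Cd34 was highest in stellate cells (520 against 31.6), and only Bcam in ECs, so the medians do not describe large-vessel ECs.

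Lists of genes by which ECs and KCs signal to each other had medians near the mixture, with single genes over 2-fold away in some libraries. Of all tested genes, 26.8% were above and 12.5% below in all 4 libraries. The means of the ligand, receptor and target lists were 0.18, 0.05 and 0.14. With the EC share from KC genes they were 0.42, 0.11 and 0.25, against 0.08 over all tested genes. For 11 tested of 14 niche ligands the median was 0.19, 0.15, 0.13 and 0.24 (0.05, 0.04, 0.08 and 0.05 over all tested genes), with 7 above in all 4 libraries, among them Bmp2, which had 684, 697, 707 and 767 CPM against 599.9, 574, 666 and 662 (log2 0.19, 0.28, 0.09 and 0.21). Gdf2, Cxcl12 and Sparc, also among these 7, had their highest level in stellate cells, with 296, 1364 and 3678 CPM on average. The part of stellate cells in the count was not tested. Niche receptors gave −0.02, 0.06, 0.01 and 0.17 over 10 genes, 4 above and 3 below in all 4 libraries (mean −0.25 with the limits read as UMIs), and target genes of BMP and Notch signalling 0.19, 0.14, 0.02 and 0.21 over 7 genes, 2 above and 1 below (mean −0.04 with that reading). Csf1r, the receptor for CSF1 on which KCs depend, had 1011, 1137, 1155 and 999 CPM against 829.7, 877, 1037 and 792 (log2 0.29, 0.37, 0.16 and 0.33), with a mean of −0.46 under that reading. Notch1 was also above, at 160.2, 121, 275 and 163 CPM against 119.9, 105, 214 and 128, as were the Notch target Hes1 (log2 0.30, 0.22, 0.25 and 0.21) and Smad7, an inhibitor that BMP and TGF-beta signalling induces (0.19, 0.32, 0.32 and 0.34). The genes below in all 4 libraries, named after their values were seen, were Kit, the chemokine receptor Cxcr4 (−1.38, −1.11, −0.61 and −0.58), the TGF-beta receptor Tgfbr1 (−0.13, −0.29, −0.34 and −0.13) and the BMP target Id1 (−0.34, −0.10, −0.20 and −0.09). Id3, the most abundant of the targets, lay on both sides (−0.16, 0.01, 0.09 and −0.06). Sparc, a matrix protein, averaged 2281 CPM in ECs and 3678 CPM in stellate cells. Members had 1089.6, 1007, 557 and 1311 CPM of it against 983, 924, 456 and 1238 (0.15, 0.12, 0.29 and 0.08), with a mean of −0.34 with the limits read as UMIs.

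The rule genes themselves are given as a description only, since they chose the members. Marco had the largest mean ratio of the 16 rule genes, with 815, 862, 249 and 646 CPM against 586, 666, 159 and 373 (log2 0.47, 0.37, 0.65 and 0.79), followed by Cdh5, with 598, 630.1, 933 and 584 against 451, 449, 630.1 and 463 (0.40, 0.49, 0.57 and 0.33). For the lists of genes outside the rule, the plot of list medians sets the 4 libraries side by side, and most lists of KC and EC genes stand between 0 and 0.5 in every library.

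**Figure D5:**
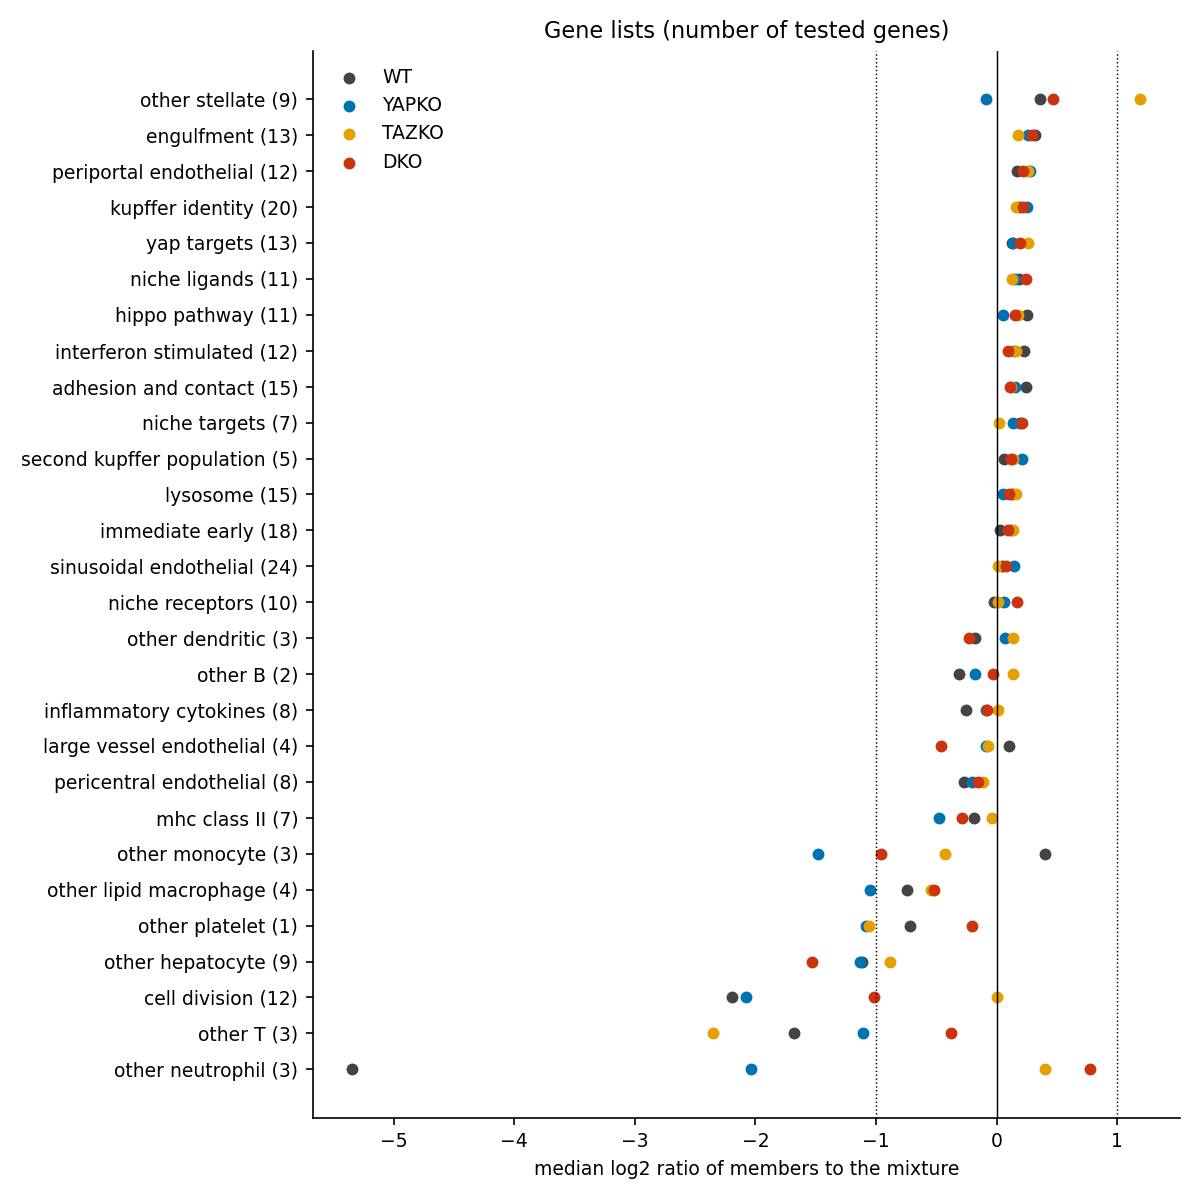
Median log2 ratio of observed to expected UMIs for each gene list (rows, with the number of tested genes in brackets), 1 dot per library, with lines at 0 and at 1 and −1. Lists named other hold markers of other cell types. The hepatocyte list lies between −0.89 and −1.53, while the lists for neutrophils, cell division, stellate cells, T cells and monocytes spread between libraries, and the means of the first 3 of these changed sign without cells of further types, with the limits read as UMIs and with doubled thresholds, in that order.

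Genes of engulfment and of the lysosome, through which macrophages take up and digest cells and proteins, had medians above the mixture, those of the lysosome by little more than all tested genes. For 13 engulfment genes the median was 0.32, 0.26, 0.18 and 0.29, with 9 above and 1 below in all 4 libraries (26.8% and 12.5% of all tested genes) and a summed level of 3125, 3075, 4285 and 3265 CPM against 2591, 2571, 3663 and 2782. Axl, a receptor for apoptotic cells, had 438, 311, 552 and 381 CPM against 335, 259, 455 and 288 (log2 0.38, 0.27, 0.28 and 0.40), and Lrp1, a receptor that internalises many ligands, 485, 514, 537 and 504 against 401, 389, 475 and 411 (0.27, 0.40, 0.18 and 0.29). The 15 lysosome genes had a median of 0.13, 0.06, 0.16 and 0.10 against 0.05, 0.04, 0.08 and 0.05 over all tested genes. Ctsb, which encodes the protease cathepsin B, had 4903, 4924, 4811 and 4208 CPM against 4006, 4403, 4114 and 3527 (0.29, 0.16, 0.23 and 0.25). The mean of neither list changed direction under any alternative.

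Adhesion genes had a median of 0.24, 0.15, 0.12 and 0.11 over 15 tested of 16 genes, against 0.05, 0.04, 0.08 and 0.05 over all tested genes. Vcam1, an adhesion molecule for leukocytes that both KCs and ECs carry, had 399, 574, 214 and 546 CPM against 299.9, 475, 155 and 446 (log2 0.41, 0.27, 0.46 and 0.29). Of this list 8 genes were above and 4 below in all 4 libraries, as were 26.8% and 12.5% of all tested genes.

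Activation programmes showed no departure near 2-fold. The median of 18 immediate early genes, which tissue digestion can induce, was 0.03, 0.12, 0.14 and 0.10 (0.05, 0.04, 0.08 and 0.05 over all tested genes), that of 12 interferon-stimulated genes 0.23, 0.14, 0.16 and 0.09 (mean −0.12 with the limits read as UMIs) and that of 8 tested of 13 inflammatory cytokine genes −0.25, −0.09, 0.01 and −0.08. Irf7, a regulator of the interferon response, had 455, 565, 419 and 211 CPM against 399.9, 499, 379 and 185 (log2 0.19, 0.18, 0.14 and 0.18), and Il1b, which encodes interleukin-1 beta, 193, 97.5, 118 and 165 against 211, 138, 113 and 186 (−0.13, −0.50, 0.06 and −0.17).

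Genes of MHC class II, which present antigen to T cells, were below the mixture in WT, YAPKO and DKO and close to it in TAZKO, where the direction reversed at doubled thresholds (0.19), without Cdh5 in the rule (0.12), with wider references (0.03) and with the EC share from EC genes (0.03). At the doubled thresholds WT was at −0.01. The shortfall was largest with the limits read as UMIs (−0.65, −1.21, −0.18 and −1.25, mean −0.82). All 7 were tested, and 5 were below in all 4 libraries, as were 12.5% of all tested genes. The median of the 7 genes was −0.19, −0.48, −0.03 and −0.29, and their sum was 6689, 7622, 5888 and 9681 CPM against 7906, 10600, 6043 and 12092. Cd74, the invariant chain and the most abundant of them, had 3127, 3609.5, 2745 and 4258 CPM against 3659, 4756, 2853 and 5193 (log2 −0.23, −0.40, −0.06 and −0.29), and H2-Eb1 751, 896, 635 and 1364 against 1021, 1473, 676 and 1873 (−0.44, −0.72, −0.09 and −0.46). Lists of other cells that carry these genes had members on both sides. B cell genes (2 of 6 tested, the most abundant being Bank1) had medians of −0.31, −0.18, 0.14 and −0.03 and summed to 162, 145, 225 and 163 CPM against 168, 130.2, 209 and 152, with the mean turned to 0.20 when the limits were read as UMIs. Bank1 was not particular to B cells, averaging 213 CPM in KCs and 562 in B cells. Cd79a and Ebf1, with too few UMIs to be tested, were below in all 4 libraries, by log2 −0.96 and −1.29 at the least. Dendritic cell genes (3 of 7 tested, led by Zbtb46) had −0.18, 0.07, 0.14 and −0.23 and summed to 74.9, 48.6, 160.0 and 79.4 CPM against 73.4, 85.4, 157 and 129, with the mean turned to 0.07 with the limits read as UMIs and to 0.13 with the EC share from KC genes. Zbtb46 was highest in ECs, at 97.8 CPM against 1.60 in KCs. Siglech and Ccr9 of the same list had mean log2 ratios of −2.00 and −1.33. These means turned to 0.29 and 0.21 with the limits read as UMIs, and neither gene departed to the same side in all 4 libraries. The part of B cells and dendritic cells in the result was not tested.

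Yap1 and Wwtr1, the genes deleted in hepatocytes and biliary cells, were present in the members of every library. Yap1 gave 53, 47, 72 and 54 UMIs, or 19.1, 16.8, 31.6 and 15.99 CPM against 15.0, 13.9, 26.3 and 15.5 in the mixture, a log2 ratio of 0.34 (interval −0.09 to 0.76), 0.27 (−0.19 to 0.70), 0.26 (−0.11 to 0.63) and 0.04 (−0.39 to 0.45). All 4 intervals included 0, so that a departure of Yap1 could not be detected with these counts. Wwtr1 gave 73.1, 70.3, 71.2 and 71.98 CPM against 52.2, 52.7, 60.5 and 64.8 (log2 0.48, 0.42, 0.23 and 0.15), a mean that turned to −0.26 with the limits read as UMIs. Its intervals were above 0 in WT (0.27 to 0.69) and YAPKO (0.20 to 0.63) and reached below 0 in TAZKO and DKO.

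The list of the Hippo pathway, the kinase cascade that holds YAP and TAZ in the cytoplasm, includes Yap1 and Wwtr1 and had a median of 0.25, 0.05, 0.18 and 0.15 over 11 tested of 14 genes (0.05, 0.04, 0.08 and 0.05 over all tested genes), 8 of them above in all 4 libraries, and a mean turned to −0.12 with that reading. Of all tested genes, 26.8% were above in all 4 libraries. Lats2, a kinase of the cascade, had 46.1, 36.1, 98.4 and 74.0 CPM against 38.1, 35.8, 80.7 and 52.9 (log2 0.27, 0.01, 0.29 and 0.48). Genes known as YAP targets had a median of 0.13, 0.13, 0.26 and 0.19 over 13 tested of 22 genes, with 7 above in all 4 libraries and a mean turned to −0.01 with that reading. They summed to 1314, 1028, 1631 and 1155 CPM against 1052, 923, 1265 and 970. Crim1, which binds BMPs at the cell surface, had 154, 156, 248 and 161 CPM against 143, 136, 195 and 148 (0.10, 0.20, 0.35 and 0.12), and Asap1, a regulator of focal adhesions, 100.8, 126, 89.2 and 130.3 against 107, 127, 99.0 and 129, and so on both sides of 0.

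The genes whose ratio to the mixture differed most from that of WT, in the same direction in YAPKO and DKO, had few UMIs or a large part of them in single members in at least 1 library. Higher than in WT were Slpi, a protease inhibitor, Ccnb2, a cyclin of mitosis, the histone genes H1f5 and H2ac8, and Gm40309. Slpi gave 7, 14, 652 and 21 UMIs, with 98.8% of those of TAZKO in 1 member, and Ccnb2 4, 11, 17 and 22. H1f5 gave 7, 18, 25 and 4 UMIs, Gm40309 15, 28, 21 and 38, and H2ac8 27, 50, 41 and 46, of which 48.1%, 46.0%, 41.5% and 43.5% were in 1 member. Lower than in WT were Ly6d, Cd4, Klk1, Iglc3 and Mmp12. Ly6d, a surface protein of lymphoid progenitors, gave 142, 1, 29 and 23 UMIs, with 50% of those of WT in 1 member, and Cd4, the T cell co-receptor, 25, 9, 19 and 18. Klk1 gave 25, 0, 29 and 21 and Iglc3 37, 1, 16 and 40. Mmp12, which encodes macrophage elastase, gave 42, 168, 6 and 450 UMIs, with 92.9% of those of WT and 91.1% of those of YAPKO in 1 member each, but 18.9% of those of DKO. Its UMIs were more in YAPKO and DKO than in WT. Its log2 ratio to the mixture differed from that of WT by −1.27 and −1.98.

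Neutrophil and monocyte lists lay on different sides of the mixture in different libraries. The tested genes of the lists for lipid-associated macrophages and platelets were below in every library, though most were not particular to those cells. Neutrophil genes (3 of 7 tested) had medians of −5.34, −2.03, 0.40 and 0.78 and summed to 32.4, 159, 111 and 416 CPM against 529, 649.7, 96.5 and 245, with the mean turned to 0.25 when cells with RNA of further types were left out. Ly6g was at 0 in all 4 libraries and Retnlg in WT. S100a8, a calcium-binding protein and their most abundant gene in YAPKO, TAZKO and DKO, gave 11, 178, 97 and 670 UMIs, of which 34.8%, 36.1% and 36.6% came from 1 member in YAPKO, TAZKO and DKO. Monocyte genes had medians of 0.40, −1.48, −0.43 and −0.96 (3 of 6 tested). The list of lipid-associated macrophages had −0.74, −1.05, −0.54 and −0.52 (4 of 5 tested). All 4 were below in every library, as were 12.5% of all tested genes. Of that list Trem2, a lipid receptor, gave 12.96, 32.5, 15.4 and 64.9 CPM against 22.3, 93.7, 17.8 and 88.0. Among the types compared Trem2 was highest in KCs, but Fabp5 and Spp1 of that list were highest in ECs and Cd9 in neutrophils. The only tested gene of 5 on the platelet list, the chemokine Pf4, had log2 ratios of −0.72, −1.08, −1.06 and −0.20. Pf4 was itself a gene of the reference KCs, averaging 172 CPM there and 25.4 CPM in ECs. No gene of the lists for NK cells, biliary cells and red blood cells was tested. The NK list summed to 7.92, 8.21, 3.52 and 8.29 CPM and the biliary list to 13.7, 0.357, 16.7 and 1.78, while red cell genes gave 14, 10118, 14 and 3 UMIs, with 99.9% of those of YAPKO in 1 member.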

How the data were processed

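Single-cell RNA was counted in 4 libraries, 1 mouse each. The authors aligned reads to mm10 with Cell Ranger (6.0.1 per their text and the submitters' processing notes, 4.0.0 per the matrix headers) and deposited raw UMI counts for 55488 genes and 13657, 7711, 14418 and 9188 barcodes in WT, YAPKO, TAZKO and DKO. All later steps ran in Python 3.11.15 (pandas 2.3.3, scipy 1.17.1, numpy 2.4.6, matplotlib 3.10.9). The members and the gene lists were chosen with earlier results of these data known. The limits of 500 to 6000 were read as detected genes, as the rule for the members gives them. The authors word these limits as transcripts, so the main setting departs from that wording, and UMIs were taken as an alternative that left far fewer members and tested genes. No doublet caller was run, because barcodes with RNA of both types are the subject.

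Expected UMIs were the members' total times the mixture of the summed profiles of reference KCs and ECs of the same library. The EC share was fitted by Poisson likelihood over genes with at least 50 UMIs in a reference. Intervals of a ratio are conditional binomial, with an effective count for the expected UMIs and the EC share held fixed, and shares of cells have Clopper-Pearson intervals. A share of 0 was given the limit of 3 counts. The steps were tested on simulated data. Levels in other types are means of the libraries' CPM over cells of those types with a KC sum below 0.1%. Except in hepatocytes, the EC sum of these cells was also below 0.1%, which left 18, 8, 18 and 22 stellate cells. Thinning used 1 fixed seed. Each list was described by its median and counts. Those of all tested genes, their background, are given before the lists and again beside several of them. Coordinates are those of GENCODE release 21 on GRCm38, in which all 207 named genes were found.

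Genes were named by rule: the 10 highest above and the 10 lowest below the mixture by their smallest departure over the 4 libraries, the 5 in each direction that differ most from WT in both YAPKO and DKO, both without rule genes, mitochondrial genes and markers of other types, then Yap1, Wwtr1, Sparc, Bmp2 and the rule genes, and the most abundant genes of each list. Genes outside these rules are named as calls under an alternative or marked in the text as chosen after their values were seen. A result that these rules name is not reported here. Alternatives covered the reading and the upper limit of detected genes, up to 20% mitochondrial UMIs, doubled thresholds, wider references, means of per-cell shares, cells with RNA of further types left out, members with an EC share of 0.2 to 0.8, other genes and estimates for the EC share, other minimum UMIs, each library left out, Cdh5 left out of the rule and dividing cells left out.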

Additional observations from a re-analysis of the deposited data

Results flagged for a closer look

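A signal appeared among barcodes that the limits on detected genes left out. Of the barcodes with over 6000 genes, 227 met both sums of the rule, 29 in WT, 137 in YAPKO, 4 in TAZKO and 57 in DKO. They were 78.4%, 83.5%, 80% and 91.9% of the barcodes with over 6000 genes that passed the KC threshold, and the barcodes with over 6000 genes numbered 133, 418, 25 and 166.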

How the results depend on the processing

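With the limits read as UMIs there were 124 members, an EC share of 52.1%, a ratio of mean UMIs of 0.435 and 1 gene (Fau) below the mixture of only 35 tested. Without an upper limit on genes there were 1012 members, a share of 43.9%, a ratio of 1.01 and 28 genes above, and of 20 genes below 9 were among the 14. Doubled thresholds gave 369 members, 41.6% and 15 genes below, 4 of them among the 14, and leaving Cdh5 out of the rule 726 members and 40.6%. The EC share was 39.4% as the mean of libraries and 39.7% with wider references, 38.0% without cells with RNA of further types, 40.7% over members with a share of 0.2 to 0.8, 39.9% with genes differing 4-fold, 41.9% from EC genes, 32.3% from KC genes and 39.7% without dividing cells. Means of per-cell shares gave 5 genes above (Angptl2, Gucy1a1, Postn, Reln and Tlcd4) and 24 below, 6 of them among the 14. Below the mixture were 8 genes with at least 50 UMIs (6410 tested), 46 with at least 1 expected UMI (14744 tested), 6 with wider references and 6 with the share from KC genes, and leaving out 1 library at a time gave 16 to 52 below and 0 to 1 above. Thinning gave 19.97% of KCs, 11.3% of neutrophils and 0.228% of hepatocytes past the EC threshold. With at least 50 UMIs fewer genes were tested, and for the rest the cause was not tested. None of the 14 genes called below changed the sign of its mean log2 ratio. Steap4, Dcn, Cxcl12 and Gdf2, over 2-fold above in TAZKO, did so at doubled thresholds. The settings without Cdh5 and without dividing cells were chosen after seeing the data. No paired analysis was possible because the results come from no test and each genotype has 1 library.

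Of the values of list medians under other settings, 48 moved by more than 1 SD over the libraries and 344 by less, and of those of named genes 461 left the mean counting interval and 2437 did not. Of the 207 named genes the mean log2 ratio changed sign in 56 with the limits read as UMIs, 26 at doubled thresholds, 17 without the upper limit, 17 with the share from KC genes, 13 with per-cell shares, 11 with the share from EC genes and 11 without dividing cells, and in at most 6 under each other setting.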
